A study of Mus musculus with 8 samples.

Results

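Probes on a mouse kidney expression array that report RIKEN-type full-length cDNA clones, rather than curated mRNAs, were compared between kidneys of mice given cinacalcet and of controls. The members are the non-control probes whose systematic name is the letters AK followed by digits only, and there are 2497 of them among 55681 non-control probes, for 2457 clone accessions. They are called AK probes below. Total RNA of whole kidney was measured on 8 one-colour arrays of 1 slide, 4 per group. Controls received standard chow. The other group received cinacalcet HCl, a calcimimetic that sensitises the calcium-sensing receptor to calcium, at 1 mg per g body weight for 5 days. All mice are labelled male, at an age of 12 weeks, with no strain or allele named. Nothing states that the numbered samples are separate animals, and the p-values reflect only how far these samples spread, which may be technical.

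Accessions that begin with AK were given to full-length cDNA clones deposited in bulk, in the mouse mainly by the RIKEN cDNA encyclopedia and its annotation project FANTOM. Such clones were taken from many tissues and stages, and the collection is known for transcripts that lie outside curated protein-coding mRNAs: non-coding RNAs, antisense RNAs, alternative ends and transcripts primed within introns. Probes whose names start with NM_, which report curated RefSeq mRNAs, are the comparison class here. The files give an accession for each AK probe and no gene, clone library or probe sequence, and 0 of the AK accessions were found as a symbol, synonym or transcript in the RefSeq gene table of GRCm38.p6. The clones are therefore named by accession only, without gene, function or position, and the RIKEN origin was taken from the accession prefix and not checked.

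The arrays fell into a pattern that the labels do not give, and each result below uses these arrays. On control 4, cinacalcet 2 and cinacalcet 3 the 4 Y-linked genes examined (Kdm5d, Uty, Eif2s3y and Ddx3y) were at background, although the mice are labelled male; the other 5 arrays had 3 or 4 of them. Xist, which is transcribed from the inactive X chromosome, was at 0.95, 0.45 and 0.73 on these 3 arrays and between -6.99 and -4.22 on the other 5. Kidney markers were all present, with 8 of 8 well above background on all arrays. The 75th percentile of spot intensity was between 203 and 257, and AK probes were well above background in 41.1% to 47.3% of cases on control arrays and in 43.8% to 50.2% on cinacalcet arrays. Levels below are log2 intensities relative to the 75th percentile of the array, means carry the SD with n = 4, and changes are cinacalcet minus control.

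AK probes gave signal in kidney less often than mRNA probes. Of the 2497 AK probes, 946 (37.9%) were well above background on all 8 arrays and 1105 (44.3%) on none, against 64.5% and 24.3% of NM_ probes. Between these lay 259 probes seen on 1 to 3 arrays and 187 seen on 4 to 7. The 1133 probes (45.4%) seen on at least 4 arrays were tested, for 1121 accessions, while 69.3% of NM_ probes passed that filter. Probes for Ensembl transcripts (46.0%) and for genomic intervals (34.5%) also passed it less often than NM_ probes. The median level of the tested AK probes was -1.93, in a range from -4.87 to 9.03, against 0.42 for NM_ probes. Since calls depend on signal, AK probes were set against NM_ probes of like signal.

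The 3 brightest AK probes did not pass the test. AK007267 stood at 8.97, 9.17, 9.11 and 9.17 on control arrays 1 to 4 and at 8.88, 9.00, 8.93 and 8.97 on cinacalcet arrays 1 to 4 (limma adjusted p = 0.231). AK006445 was at 8.53 ± 0.09 in controls and 8.45 ± 0.12 with cinacalcet (limma adjusted p = 0.596). AK132518 was at 8.37 ± 0.09 and 8.39 ± 0.09 (limma adjusted p = 0.910). In all 3 the groups overlapped.

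Among the AK probes, rises far outnumbered falls. At an adjusted p under 0.05 in limma, 89 of 1133 AK probes (7.86%) rose with cinacalcet and 13 (1.15%) fell, while over all 29732 probes tested 3.45% rose and 2.56% fell. Of the 102 AK probes called, 87.3% were higher, against 45.3% of the 1120 NM_ probes called. At like signal, which means averaged over 20 equal bins of the AK probes' mean level, 2.95% of NM_ probes rose and 3.49% fell. The share called in either direction was 9.00% of AK probes, 6.00% of all probes and 6.45% of NM_ probes at like signal, a difference of 2.55 percentage points. That difference was not stable: it was -0.0231 without the filter on background, 0.823 with normexp, 0.911 for the arrays that had Y-linked signal and 1.58 with slide row as a block. It was 0.147, 0.0752, 0.314 and 6.64 without control 1, 2, 3 or 4, and 1.02, 0.0464, 0.104 and 1.78 without cinacalcet 1, 2, 3 or 4. Probes are not replicates, so these shares are a description and carry no test.

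The same tilt was seen without any threshold. The median change of the tested AK probes was 0.14 (middle 50% from -0.08 to 0.39), and 67.9% had a positive estimate. For NM_ probes of like signal the median was 0.01 and 50% were positive. The 4 cinacalcet values all lay above the 4 control values in 185 AK probes (16.3%) and all below in 35 (3.09%), where 9.59% and 7.13% of all probes tested did so. Other classes of probe outside RefSeq mRNAs also leaned upward. Of 5582 tested probes for genomic intervals, 4.84% rose and 1.16% fell, and of 1479 for Ensembl transcripts 4.60% rose and 1.42% fell, so an excess of rises over falls was not limited to the AK class. Whether the classes differ from each other was not tested.

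The share of AK probes called differed by level, while their median change varied little below a level of 2. From under -3 upward the AK medians were 0.16, 0.15, 0.16, 0.15 and 0.12, and 0.02 at levels of 2 or more. Those of NM_ probes were 0.02, 0.02, 0.01, -0.0003, -0.01 and -0.06. Between -2 and -1, 29 of 200 AK probes rose (14.5%), against 3.36% of NM_ probes in the same range. Between 0 and 2, 14 of 149 AK probes rose (9.40%), against 3.18%. At levels under -3 the shares that rose were closer, with 12 of 325 AK probes (3.69%) and 2.78% of NM_ probes, while 0.923% and 2.48% fell. At levels of 2 or more, 3 of 81 AK probes rose (3.70%) and 2 fell (2.47%), beside 2.16% and 2.70% of NM_ probes. The SD within groups, which sets what can be called, had a median of 0.35 in AK probes under -3 and 0.15 in those at 2 or more. The corresponding medians of NM_ probes were 0.37 and 0.13.

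**Figure D1:**
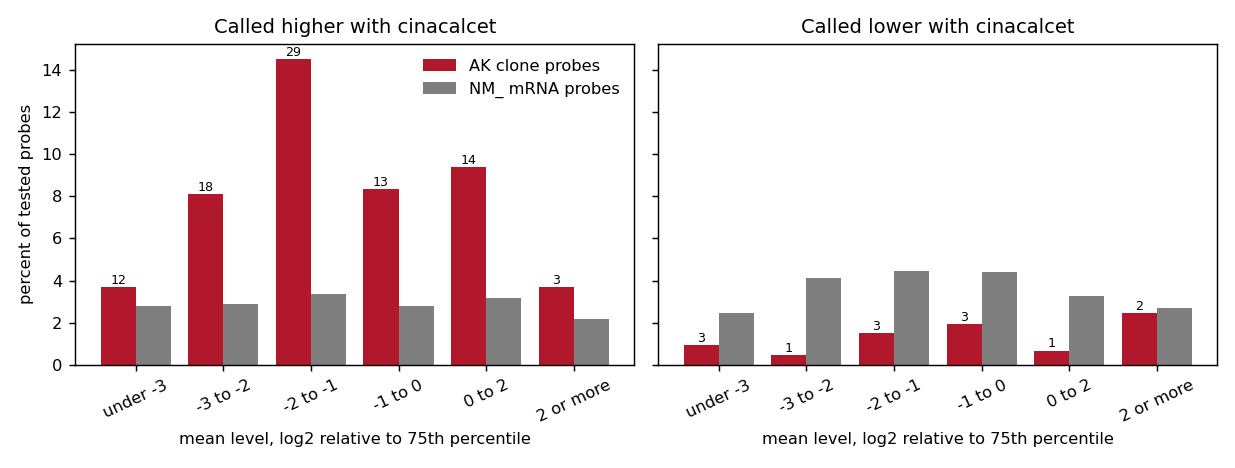
Percent of tested probes called higher (left) or lower (right) with cinacalcet at an adjusted p under 0.05 in limma, by mean level over the 8 arrays in log2 relative to the 75th percentile, for AK probes (red, with the number called above each bar) and NM_ probes (grey). The tallest bar is the 14.5% of AK probes called higher between -2 and -1, where 3.36% of NM_ probes were; falls were 0.45% to 2.47% of AK probes in every bin.

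The class shift could be followed array by array. The median AK probe lay -0.16, -0.09, -0.07 and 0.05 from its 8-array mean on controls 1 to 4, and 0.05, 0.04, 0.08 and 0.12 on cinacalcet arrays 1 to 4. Controls 1 to 3 were thus below all cinacalcet arrays, while control 4 was above cinacalcet 2. For NM_ probes of like signal the shifts were 0.00, -0.03, 0.01 and 0.04 on controls and 0.01, 0.03, 0.00 and -0.01 with cinacalcet, and the groups overlapped. The AK shift minus the NM_ shift was between -0.16 and 0.00 on controls and between 0.01 and 0.13 on cinacalcet arrays, with control 4 and cinacalcet 2 next to each other.

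**Figure D2:**
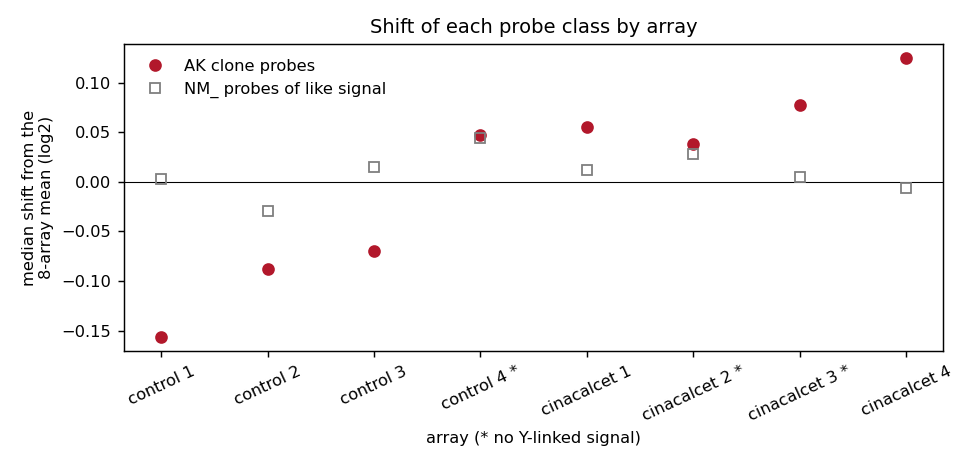
Median shift of each probe class from its mean over the 8 arrays, in log2 units, by array; red circles are the 1133 tested AK probes, grey squares the NM_ probes of like signal, and asterisks mark the 3 arrays without Y-linked signal. AK probes ran from -0.16 on control 1 to 0.12 on cinacalcet 4, with control 4 at 0.05, while NM_ probes stayed between -0.03 and 0.04.

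Several technical and tissue measures moved across the same arrays, and their part in the AK shift was not tested. The first principal component of the tested AK probes held 52.0% of their variance and placed controls 1 to 3 at -12.5 to -10.3, cinacalcet 1 and 4 at -0.84 and 1.53, control 4 at 4.93 and cinacalcet 2 and 3 at 12.8 and 14.7. Spot intensity at the 75th percentile was 203 to 257 on controls and 234 to 253 with cinacalcet. The median local background was 21 to 27 and 22 to 27. On the slide, controls 1 to 4 sat in columns 3, 4, 2 and 4, and cinacalcet 1 to 4 in columns 1, 2, 3 and 1. Column 1 thus held only cinacalcet arrays and column 4 only controls, where position and treatment cannot be told apart. Erythroid markers fell in 4 of 5 tested genes, with the summed level of the list at 8.99 to 9.51 on controls and 6.65 to 8.33 with cinacalcet. Macrophage markers fell in 3 of 3, from sums of 4.85 to 4.99 to sums of 4.22 to 4.61. Of 7 tested fat markers 1 fell, Ucp1, with sums of 5.81 to 7.76 and 5.23 to 6.87 and Lep at background throughout. Of the 4 muscle markers only Tnnc2 was tested. It rose, from a level well above background on 2 controls. Acta1, Ckm and Mylpf did not pass the filter, being at background except for Acta1 on 1 cinacalcet array. Their differences were -0.20, -0.56 and -0.09. The adrenal markers Star and Hsd3b1 missed the threshold (limma adjusted p of 0.260 and 0.065). In whole tissue, fewer cells of a type and less RNA per cell cannot be told apart.

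Median changes of dim AK probes were smaller in size with normexp background correction, which here adds an offset of 50 to each intensity. An added constant shrinks log2 changes of dim probes whatever their background. Smaller changes there were thus partly fixed in advance, and the offset and the correction cannot be told apart. With normexp correction in place of the scanner software's own, the median change of the AK probes was 0.01 and that of NM_ probes of like signal -0.04. Under -3 the AK median went from 0.16 to -0.04 and the NM_ median from 0.02 to -0.07. Both medians changed sign there, and the cause was not tested. Between -2 and -1 the AK median went from 0.16 to 0.08. Calls kept their tilt, with 65 AK probes higher (5.74%) and 16 lower (1.41%), beside 2.80% and 3.65% of all probes and 1.75% and 4.58% of NM_ probes at like signal. The share of called probes that were higher was then 80.2% for AK and 36.3% for NM_ probes, and over all probes it went from 57.4% to 43.5%. Of the 89 rises 54 were also called with normexp, and none of the 102 called probes changed sign.

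Counts of called AK probes moved with single arrays, while the tilt did not turn. Rises numbered 21, 11, 17 and 228 without control 1, 2, 3 or 4, and 68, 16, 16 and 42 without cinacalcet 1, 2, 3 or 4. Falls numbered 2, 1, 1 and 36 without control 1 to 4, and 10, 2, 3 and 8 without cinacalcet 1 to 4. AK rises were thus 0.97% of probes without control 2 and 20.1% without control 4. NM_ probes at like signal moved with the same arrays. Of them 0.79%, 0.37%, 0.57% and 7.61% rose without control 1 to 4, and 2.35%, 0.53%, 0.61% and 1.15% without cinacalcet 1 to 4. Their falls were 1.09%, 0.61%, 0.70% and 9.06%, and 3.51%, 1.02%, 0.96% and 1.48%. In each of these 8 fits a larger share of AK than of NM_ probes at like signal rose and a smaller share fell. With Y-linked signal as a block 133 AK probes rose (11.7%) and 30 fell (2.65%), beside 5.75% and 5.39% of all probes, and these included all 102. On the 5 arrays with Y-linked signal 37 rose (3.27%) and 9 fell (0.794%), beside 1.37% and 1.71% of all probes, and 73.3% of AK estimates were positive. Within slide rows of 2 against 2 arrays no AK probe was called in limma, with 264 higher and 67 lower at an unadjusted p under 0.05 in row 1, and 97 and 20 in row 2. At like signal no NM_ probe was called within rows either. The unadjusted AK shares were 23.3% and 5.91% in row 1, beside 11.6% and 11.9% of these NM_ probes. In row 2 they were 8.56% and 1.77%, beside 3.82% and 5.65%.

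The largest rises were found from probes near background to probes well above it. AK143198 was at 0.23, 0.26, 0.34 and 0.50 on controls 1 to 4 and at 1.41, 2.75, 2.83 and 2.31 on cinacalcet 1 to 4. It rose 3.98-fold, a log2 change of 1.99 (SE 0.29; limma adjusted p = 0.0146), and the lowest cinacalcet array was clear of all controls, as the rule for naming required. The change was 1.84 with normexp and 1.59 in the 5 arrays that had Y-linked signal, where it missed the threshold (limma adjusted p = 0.0511). It also missed it when control 2 was left out (limma adjusted p = 0.0527).

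AK005214 rose from a low level by a similar factor. It stood at -2.80, -3.17, -3.60 and -3.28 on controls and at -1.36, -1.72, -1.54 and -1.02 with cinacalcet. The rise was 3.48-fold (log2 change 1.80, SE 0.20; limma adjusted p = 0.0103), and the gap between the groups was wider than the range within either. With normexp the log2 change was 0.70 (limma adjusted p = 0.00539). The probe passed in all 8 fits that left out an array (limma adjusted p from 0.00952 to 0.0386) as well as in the 5 arrays that had Y-linked signal (limma adjusted p = 0.0385).

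AK044267 was tight in both groups, at -3.60, -3.52, -3.60 and -3.35 on controls and -2.50, -2.26, -2.18 and -2.53 with cinacalcet. It rose 2.22-fold (log2 change 1.15, SE 0.11; limma adjusted p = 0.0103), or by 0.33 with normexp (limma adjusted p = 0.0401). This call too was kept with each array left out, at adjusted p up to 0.0368 in limma.

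AK167004 is represented by a pair of kept probes that gave nearly the same change from different levels. The brighter stood at 0.22 ± 0.22 in controls and 1.22 ± 0.14 with cinacalcet, and the dimmer at -2.39 ± 0.30 and -1.33 ± 0.20. Their log2 changes were 1.00 (SE 0.13) and 1.06 (SE 0.16), with limma adjusted p of 0.0111 and 0.0166. With normexp the change of the dimmer probe was 0.51. AK014157 likewise rose on both of its probes, by 0.44 and 0.52 on the log2 scale (limma adjusted p of 0.0455 and 0.0259), and is named after its values were seen.

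A further 3 of the 10 largest rises were above background in few or no controls. On the controls AK038322 was never well above background, at -6.20, -6.30, -5.16 and -4.09, and was on all cinacalcet arrays, at -3.59, -3.25, -2.33 and -3.67. It was at least 2.31-fold higher with cinacalcet. This bound was taken against, on each control array, the dimmest signal called well above background or the probe's own signal if brighter. The probe passed the filter on background only through the cinacalcet arrays, where it is high. Its call (limma adjusted p = 0.0462) is thus not independent of that filter, and without it the threshold was missed (limma adjusted p = 0.121). AK014678 and AK010778 were each well above background on 1 control array and on all 4 cinacalcet arrays. Their fitted log2 changes were 1.45 (SE 0.30) and 1.07 (SE 0.12), of uncertain size, since the other controls were at background. Both also passed the filter on background only through the cinacalcet arrays, where they are high. Their calls are thus not independent of that filter. Without it AK014678 missed the threshold and AK010778 passed (limma adjusted p of 0.0976 and 0.0388). The groups did not overlap in any of these, which the rule for naming them required. With normexp all 3 missed the threshold (limma adjusted p of 0.0947, 0.197 and 0.313), with log2 changes of 0.34, 0.20 and 0.11.

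The other large rises were AK165039, AK084302 and AK050067. AK165039 was at -4.10, -5.17, -4.38 and -3.89 on controls, of which 2 were well above background, and at -2.96, -2.73, -1.98 and -3.36 with cinacalcet. Its log2 change was 1.62 (SE 0.35, limma adjusted p = 0.0375), and 0.35 with normexp, short of the threshold (limma adjusted p = 0.0952). It too passed the filter on background only through the cinacalcet arrays, and without the filter it missed the threshold (limma adjusted p = 0.105). AK084302 rose 2.55-fold from -2.14 ± 0.62 to -0.78 ± 0.31, where control 2 at -3.04 was the lowest, and with normexp by 0.72. AK050067 rose 2.17-fold from -2.77 ± 0.41 to -1.65 ± 0.28, and with normexp by 0.44 (limma adjusted p = 0.0509). In AK050067 control 4, at -2.22, lay nearest to the cinacalcet arrays, as it did in 55 of the 89 rises. Control 4 was also the nearest control in 5 of the 13 falls. The share over all called probes was not counted, so this is not read as a trait of AK probes.

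The 3 brightest rises were close to the median rise in size and differed little between background corrections. AK040896 was at 3.81, 3.80, 4.03 and 3.69 on controls and 4.32, 4.58, 4.64 and 4.40 with cinacalcet, a 1.57-fold rise (limma adjusted p = 0.0188). AK132033 rose 1.47-fold from 3.80 ± 0.17 to 4.36 ± 0.17 and AK019465 1.60-fold from 2.44 ± 0.19 to 3.12 ± 0.25 (limma adjusted p of 0.0388 and 0.0377). Their log2 changes were 0.65, 0.56 and 0.67, and 0.62, 0.53 and 0.67 with normexp. All 3 missed the threshold on the 5 arrays with Y-linked signal (limma adjusted p of 0.0733 to 0.0948).

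Apart from AK038322, for which there is only a lower bound, log2 changes of the rises ranged from 0.38 to 1.99 (AK143198). The median of the 89 was 0.68, also with AK038322 at its bound, and 13 were at least 2-fold. The 89 probes report 87 accessions. Of these probes 83 were well above background on all 8 arrays. A set of 9 kept the call with each array left out: AK005214, AK007003, AK010778, AK014355, AK014606, AK018313, AK044267, AK047938 and the brighter probe of AK167004. Log2 changes in the 5 not described above were 0.96 for AK007003, 0.97 for AK014355, 0.71 for AK014606, 0.88 for AK018313 and 0.72 for AK047938. These names follow from the stability of their calls, seen afterwards. The share of all probes tested that kept a call with each array left out was not counted. The number 9 is therefore not read as a result about AK probes. AK018313 (limma adjusted p = 0.0565) and AK010778 missed the threshold with normexp, and AK047938 did on the 5 arrays with Y-linked signal (limma adjusted p = 0.0642). The fits with an array left out used the probes kept by the filter over all 8 arrays. The place of AK010778 among the 9 is thus not independent of that filter.

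The 13 falls were mostly modest. AK034303 was at -3.40, -3.98, -3.95 and -3.34 on controls and -4.21, -6.16, -5.37 and -5.60 with cinacalcet, where 1 array was well above background. Its log2 change was -1.67 (SE 0.39; limma adjusted p = 0.0452), or -0.24 with normexp, where it missed the threshold (limma adjusted p = 0.0918). AK144774 was at -3.84, -2.83, -3.39 and -3.77 on controls and -4.44, -5.53, -5.18 and -4.54 with cinacalcet, above background on 1 of them. Its change was -1.46 (SE 0.30; limma adjusted p = 0.0351) and -0.41 with normexp. Both sat near the detection limit in the lower group, so their size is uncertain. Both also passed the filter on background only through the controls, where they are high. Their calls are thus not independent of that filter, and without it both missed the threshold (limma adjusted p of 0.12 and 0.0976).

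The next falls by size were in probes measured on all arrays. AK141659 was at -1.30, -1.33, -1.11 and -1.74 on controls and -2.26, -2.90, -3.12 and -1.94 with cinacalcet, a 2.27-fold fall (limma adjusted p = 0.0425). AK082166 fell 2.00-fold from -1.04 ± 0.29 to -2.03 ± 0.19 (limma adjusted p = 0.0185), and AK154426 fell 1.97-fold from -2.24 ± 0.16 to -3.22 ± 0.29 (limma adjusted p = 0.0169). With normexp the log2 changes of these 3 were -0.61, -0.63 and -0.44, and all passed. The order of the falls thus differed with normexp, where the offset of 50 shrinks changes of dim probes. AK154426 came closest to full stability, passing in 7 of the 8 fits that left out an array and missing without control 2 (limma adjusted p = 0.0556).

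The falls extended to bright probes. AK149538 was at 4.82, 4.60, 4.94 and 4.62 on controls and 4.14, 4.04, 4.13 and 4.42 with cinacalcet, a 1.48-fold fall (limma adjusted p = 0.0344). AK030082 fell 1.56-fold, from 3.00, 2.95, 3.00 and 2.60 to 2.29, 2.20, 2.28 and 2.21 (limma adjusted p = 0.0188), with control 4 the nearest to the cinacalcet arrays. AK083460, AK033674 and AK166588 fell 1.68-fold, 1.56-fold and 1.55-fold. None of the 13 falls passed in all 8 fits that left out an array. The share of all probes tested that did so was not counted.

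**Figure D3:**
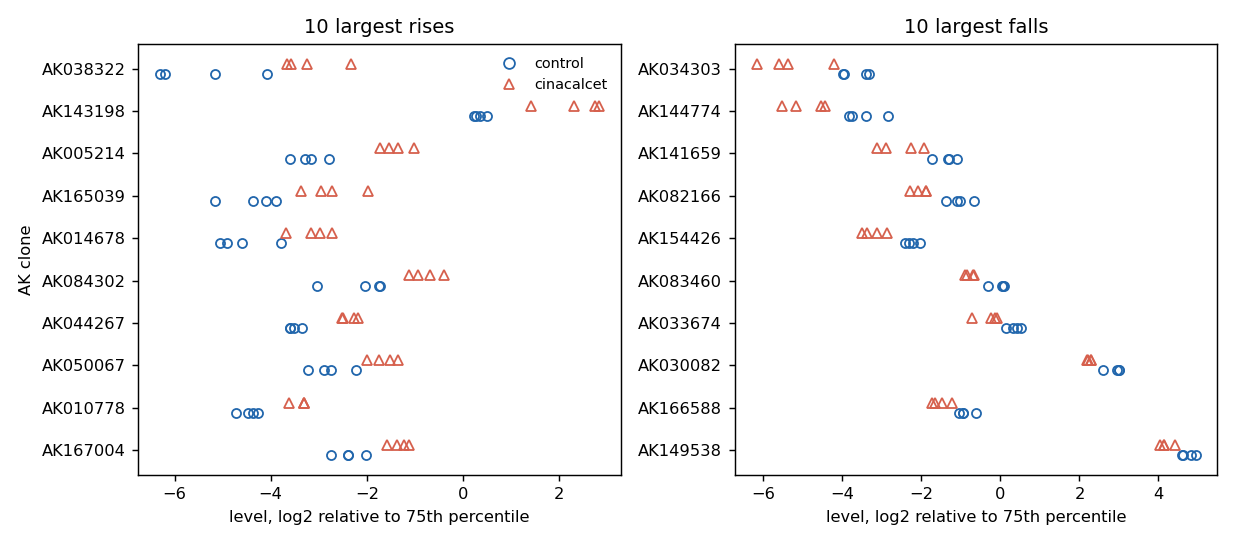
Level of the 10 AK probes with the largest rise (left) and the 10 with the largest fall (right) on each array, in log2 relative to the 75th percentile, with blue circles for the 4 control and red triangles for the 4 cinacalcet arrays. The groups do not overlap in any row, which the choice of these probes fixes; AK143198 runs from 0.23 to 0.50 on controls and from 1.41 to 2.83 with cinacalcet.

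A further group of AK probes differed by the split in Y-linked signal. With both terms in the fit, 99 of 1133 AK probes (8.74%) differed between the 3 arrays without and the 5 with Y-linked signal in limma, 60 higher without it and 39 lower, beside 11.2% of all probes tested and 13.1% of NM_ probes. AK002417 was at 6.00, 6.12 and 5.91 on controls 1 to 3 and 5.45 and 4.97 on cinacalcet 1 and 4, but at -2.58 on control 4 and -4.29 and -3.90 on cinacalcet 2 and 3. AK040781 went the same way, at 2.63, 3.01 and 2.87 on controls 1 to 3, 2.53 and 1.74 on cinacalcet 1 and 4, and -0.26, -3.09 and -3.97 on control 4 and cinacalcet 2 and 3. The differences were -9.0 (limma adjusted p = 1.09e-06) and -4.57 (limma adjusted p = 0.00285). These probes are named for their extreme values, seen afterwards.

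AK143946 carried both patterns in its levels. It was at 0.83, 1.1 and 0.73 on controls 1 to 3, at -2.15 and -2.85 on cinacalcet 1 and 4, and at -6.39, -6.52 and -6.04 on control 4 and cinacalcet 2 and 3. Between arrays with Y-linked signal the cinacalcet values were thus below the controls, while the fit over all arrays gave a log2 change of -3.46 (SE 1.82; limma adjusted p = 0.270) and -2.14 with the block (limma adjusted p = 0.0752). In the other direction AK085239, AK157781 and AK008925 were higher without Y-linked signal, by 2.25, 1.98 and 1.93 (limma adjusted p of 0.000275, 0.00175 and 0.000558). Of the 89 rises with cinacalcet, 7 also differed by this split, and of the 13 falls 1 did.

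**Figure D4:**
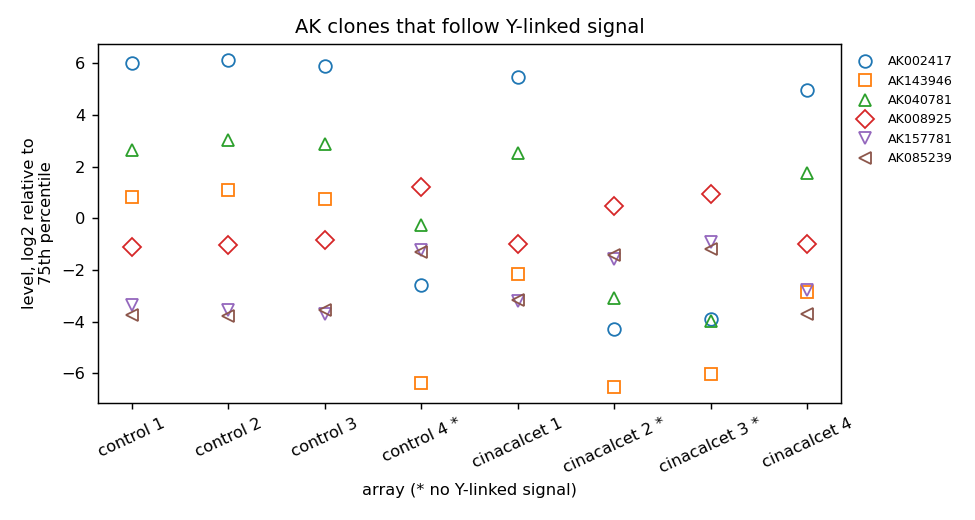
Level of 6 AK probes on each array in log2 relative to the 75th percentile, the 3 lowest and the 3 highest on arrays without Y-linked signal (asterisks) relative to arrays with it. AK002417 lies between 4.97 and 6.12 where Y-linked genes were measured and between -4.29 and -2.58 on the 3 other arrays.

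A pair of AK probes was printed 10 times on each array and shows the error between spots, not the technical error between arrays. For AK018620 and AK053689 the SD between spots of 1 array was 0.07 to 0.20 in log2 units, over 6 to 10 usable spots. AK018620 hardly varied between arrays, from -2.35 to -2.06. AK053689 was at -1.17, -1.15 and -1.13 on controls 1 to 3, at -2.31 on control 4, and at -1.82, -2.26, -2.24 and -2.85 on cinacalcet 1 to 4 (limma adjusted p = 0.137). The groups overlapped, with control 4 below cinacalcet 1 to 3.

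Different probes of 1 accession differed in log2 change by 0.06 to 0.47. Of the 11 accessions with more than 1 kept probe, the widest gap was in AK047630, with log2 changes of -0.19 and 0.27, followed by AK017177 at -0.45 and -0.12 and AK171768 at -0.33 and -0.02. The 3 probes of AK090034 gave 0.03, 0.22 and 0.24, and AK043445 gave -0.05 and 0.09. None of the probes of these 5 accessions passed the test. Over blocks of accession number, the rises were spread out, at 8.90%, 8.05%, 8.85% and 6.13% from the lowest numbers to the highest, with falls at 0.342%, 0.929%, 1.56% and 1.84%.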

How the data were processed

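The deposited files hold the scanner output of 8 one-colour (Cy3) Agilent arrays. Their spot intensity was background-corrected by Agilent Feature Extraction 11.0.1.1, per the file headers, on a linear scale with no normalization between arrays recorded. The submitters' processing notes name version 9.5 of that software. Control spots were dropped, 118 to 147 outlier spots per array were set to missing, and spots of a probe were averaged as log2 intensity minus the 75th percentile of the array. Saturated spots numbered 0. The 29732 probes above background by the scanner software's flag on 4 or more of the 8 arrays were tested with lmFit and eBayes (limma 3.58.1, R 4.3.3). P-values were adjusted by Benjamini-Hochberg over all of them. The number of arrays limits the precision.

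The named probes are the 10 largest rises and falls among called AK probes whose groups do not overlap, the 3 brightest called in each direction, the 3 brightest of all, and the 5 accessions whose probes disagree most. Members, lists and alternatives were chosen with earlier results of these data known. No pairing of same-numbered samples is stated, so the numbers were not taken as pairs. Deviations of same-numbered samples from their group means had r of 0.27, -0.40, -0.27 and -0.49 for numbers 1 to 4. The sign of r followed the split in Y-linked signal in every pair of a control and a cinacalcet array. These values can thus neither show nor exclude pairing. Alternatives covered filters, quantile scaling, normexp background (offset 50), array weights, slide row, replicate number, Y-linked signal and leaving out each array. Slide column was not among them. The fit was tested on simulated data.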

Additional observations from a re-analysis of the deposited data

Results flagged for a closer look

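Among the 37 named probes, 74 groups of 4 arrays were examined for 1 array far from the other 3, which chance gives in about 1 group in 20, and 6 were marked. In controls these were control 4 for AK030082 at 2.60 and for 2 probes of AK090034 at -2.66 and -1.91, and control 1 for AK083460 at -0.31. With cinacalcet they were cinacalcet 2 for AK010778 at -3.63 and cinacalcet 4 for one probe of AK047630 at -1.12. Control 4 is an array without Y-linked signal.

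Outside the tests, 9 AK probes were well above background on 3 cinacalcet arrays and no control array, and 4 on 3 control arrays and no cinacalcet array. Among tested AK probes, 3 were seen on all cinacalcet arrays and no control array, and 0 on all controls and no cinacalcet array. The share of all probes with these patterns was not counted. Detection of AK probes also differed by array, from 41.1% on control 2 to 50.2% on cinacalcet 4. The counts are therefore not read as a result about AK probes.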

How the results depend on the processing

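The 89 rises and 13 falls became 10 and 0 without a filter on background (limma, 321 and 98 at an unadjusted p under 0.05), 266 and 53 with array weights, and 13 and 3 with a 2-fold minimum. Without the filter 0.40% of AK probes rose and 0% fell, beside 0.20% and 0.22% of NM_ probes at like signal. With array weights the shares were 23.5% and 4.68%, beside 10.8% and 12.4%. The 2-fold minimum left 208 rises and 173 falls among all 29732 probes. No paired design is stated: with replicate number as a block, 0 and 0 passed in limma, with 258 and 57 at an unadjusted p under 0.05. Within slide rows 0 and 0 passed (limma, 264 and 67 at an unadjusted p under 0.05 in row 1, 97 and 20 in row 2). Falls numbered 30 with a block for Y-linked signal, and rises 37 on the arrays that have it. Leaving out 1 array gave 11 to 228 rises and 1 to 36 falls. NM_ probes at like signal moved too, with 0.37% to 7.61% higher and 0.61% to 9.06% lower. The AK minus NM_ difference in percent called, 2.55 points, was -0.0231 without the filter, 0.823 with normexp, 4.95 with array weights, 0 with the replicate block and within rows, and 0.0464 to 6.64 with 1 array left out. Of the 23 named probes called, 4 passed without the filter, 11 on the arrays with Y-linked signal, 0 with the replicate block or within rows, and 4 to 23 with 1 array left out. The cause was not tested. In the 13 other alternatives with any call, a larger share of AK than NM_ probes at like signal rose and a smaller share fell. Of single values of the named probes, 546 kept their side of the threshold, 215 lost the call, 5 gained it and none of the called ones turned. Signal near background limits the size of change in dim probes.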
